A study of Mus musculus with 7 samples.

Results

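The cathepsins, the vacuolar proton pump (V-ATPase) and the lysosomal membrane proteins LAMP1 and LAMP2 were followed across the cells of mouse pancreas in 3 settings. Members were taken by name alone from the 3 deposited count tables: each gene whose symbol is Cts plus 1 letter, each gene whose symbol starts with Atp6v, and Lamp1 and Lamp2. This gave 41 of the 33864 genes listed in any table. They comprise 14 cathepsins, 11 genes placed in the V0 sector of the pump, 14 placed in its V1 sector and the 2 LAMP genes. Of the V0 genes, Atp6v0c-ps1 and Atp6v0c-ps2 are pseudogenes. The sectors were assigned by symbol alone, also for Atp6v1fnb, a gene that lies next to Atp6v1f. The gene Atp6v1c2 has no row in the caerulein table and Ctsg has none in the WT table; both were read as 0 there.

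Lysosomes are the acidic compartments in which cells break down proteins, lipids and sugars taken up from outside or delivered by autophagy. The V-ATPase acidifies them: its cytosolic V1 sector hydrolyses ATP and its membrane V0 sector carries protons across. Most cathepsins are cysteine proteases made as inactive precursors and activated at low pH. Ctsd and Ctse encode aspartic proteases, while Ctsa and Ctsg encode serine proteases. Macrophages, which clear dying cells, are rich in Ctsb, Ctsd, Ctsl and Ctss. In the acinar cell, cathepsin B is known for activating trypsinogen and cathepsin L for degrading it, and premature activation of trypsinogen is a feature of pancreatitis.

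Single-cell RNA libraries were made from whole pancreas, 1 library a mouse. All mice were 2 months old. The 2 WT mice were C57BL/6 animals that had doxycycline in the drinking water at 1 mg/ml for 7 days. The 3 i4F mice carried the genotype i4F-B and had the same doxycycline; per the study's methods, this line carries the reprogramming factors Oct4, Klf4, Sox2 and c-Myc under doxycycline control in Pparg and the rtTA activator in Rosa26, and was heterozygous for both. Induction is not limited to one cell type, so every cell of the pancreas could express them. The 2 caerulein mice were wild type and received the secretagogue at 100 µg/kg in 7 injections a day over 2 days, which causes acute pancreatitis. No doxycycline is given in the labels of the caerulein mice, so caerulein and the absence of doxycycline cannot be told apart. In the labels, the i4F libraries share a name series with WT mouse 1 and the caerulein libraries with WT mouse 2.

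The libraries held 4327 to 15138 cells and 15469018 to 64784216 UMIs (unique molecular identifiers, which count RNA molecules). Any 2 libraries shared between 3 and 39 cell barcodes. The library of i4F mouse 3 stood apart from the other i4F libraries. It had the lowest median depth, at 1249 UMIs a cell, and 480 macrophage-class cells against 3495 and 3257. Its acinar and stellate cells had mostly other labels. Counts of members are therefore given with and without it, and those of related genes in part. Cells were grouped by the deposited cluster labels into 7 classes. UMIs were summed per mouse and class, and levels are given as CPM, counts scaled to 1000000 UMIs of that class in that mouse after TMM scaling. The mouse was the unit of replication (n = 2 WT, 3 i4F and 2 caerulein), and "called" means an adjusted p under 0.05 from edgeR's quasi-likelihood test over all genes of the class. Labels were checked against cell type markers. The caerulein label for B lymphocytes held 265 CPM of B cell markers, against 6463 CPM in the WT label of that name, and 4817 CPM of macrophage markers. It was left out of the classes, while its cells stayed in the all-cell sums, and no label in the caerulein table named NK or T cells.

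Of the 41 members, 34 passed the filter on low counts in the sums over all cells, 31 in ductal and in stellate cells, 29 in acinar cells and in macrophages, 27 in endothelial cells, 24 in B cells and 19 in NK/T cells. In all 7 classes 18 members were tested, among them Ctsb, Ctsd, Ctsl, Ctss, Lamp2 and Atp6v0c. Another 8 passed the filter in no class: Ctsg (71 UMIs over the 7 mice), Atp6v1g2 (221), Atp6v1c2 (25), Atp6v1fnb (20), Atp6v1b1 (18), Atp6v0c-ps1 (8), Atp6v1e2 (8) and Atp6v1g3 (6). Reads of Atp6v0c and its pseudogenes can be assigned to either, so their values are uncertain.

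Many lysosomal genes carry the E-box CACGTG close to their start sites, and transcription factors of the TFEB family are known to bind it. The bases just upstream of 4 start sites are printed here, chosen among the members called in the macrophage or all-cell sums described below because they hold this motif. Ctss, Ctsc, Ctsz and Atp6v0a1, also called there, have a window without it, and Ctsb, Ctsh and Atp6v1c1 have no window in the table. Atp6v0d1, called in the all-cell sums, holds the longer TCACGTGA across its start site and is not printed. The sequences were read from RefSeq on GRCm38.p6, 5′ to 3′ on the gene's strand, with CACGTG, or TCACGTGA where the longer form is present, in capitals. The windows are chr7:142387828-142387947 (minus strand) for Ctsd, chr2:164833653-164833772 (plus strand, inside the RefSeq span of the gene) for Ctsa, chr8:13159041-13159160 (plus strand) for Lamp1 and chr19:4855045-4855164 (plus strand) for Ctsf.
Ctsd: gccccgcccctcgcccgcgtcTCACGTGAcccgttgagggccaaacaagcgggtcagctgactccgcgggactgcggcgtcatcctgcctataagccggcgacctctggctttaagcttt
Ctsa: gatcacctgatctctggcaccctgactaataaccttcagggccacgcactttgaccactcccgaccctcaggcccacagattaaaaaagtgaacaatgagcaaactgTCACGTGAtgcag
Lamp1: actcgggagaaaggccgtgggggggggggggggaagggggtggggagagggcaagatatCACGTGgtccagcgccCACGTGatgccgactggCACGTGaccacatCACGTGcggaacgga
Ctsf: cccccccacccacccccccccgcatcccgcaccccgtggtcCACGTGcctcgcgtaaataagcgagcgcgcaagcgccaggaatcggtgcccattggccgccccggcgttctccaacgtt

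Of the 41 members, 29 matched a promoter in the RefSeq table, with 33 windows of 300 bases (250 before and 50 after a start). CACGTG was in 9 of these 33 windows (27.3%), against 2349 of all 32851 windows (7.15%). The 9 belonged to Ctsa, Ctsd, Ctsf, Ctsl, Lamp1, Atp6v0b, Atp6v0d1, Atp6v0e and Atp6v1a. The longer TCACGTGA, which contains CACGTG, was in 5 member windows (15.2%) and in 320 of all windows (0.974%). The full palindrome of the CLEAR element, which adds a base at either end of TCACGTGA, was in 0 member windows and in 107 of all (0.326%). Each of these motifs reads the same on both strands. A match describes these letters and not a bound site.

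The cells that held the members' RNA differed by gene. Ctss, the cathepsin of antigen-presenting cells, had 66.6% to 93.7% of its UMIs in macrophage-class cells in every mouse. For Ctsd and Ctsb, the chief aspartic and cysteine proteases of the lysosome, the source differed between conditions. Macrophages gave 10.2% and 20.8% of Ctsd UMIs in WT mice, 84.3% and 84.6% in caerulein mice and 74.6%, 61.4% and 38.1% in i4F mice 1 to 3. For Ctsb the shares were 11.5% and 25.1%, 79.9% and 79.7%, and 67.5%, 59.7% and 37.5%. The macrophage class itself gave 3.87% and 7.15% of all UMIs in WT, 34.1% and 30.2% after caerulein and 17.7%, 20.7% and 10.0% in i4F mice. Ctsl was mostly stellate in WT mice, where stellate cells gave 58.1% to 69.6% of its UMIs and macrophages 1.6% to 1.9%. After caerulein macrophages gave 46.9% to 51.5% of Ctsl. Ctsk, the collagen-degrading cathepsin, was a stellate transcript in every condition, with 88% to 97% of its UMIs in that class. Ctsw, a cathepsin of cytotoxic lymphocytes, had 94.5% and 91.7% of its UMIs in the NK/T class in WT mice and 15.9%, 62.4% and 88.9% in i4F mice 1 to 3. In i4F mouse 1 stellate cells gave 56.7% of its 157 UMIs.

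**Figure D1:**
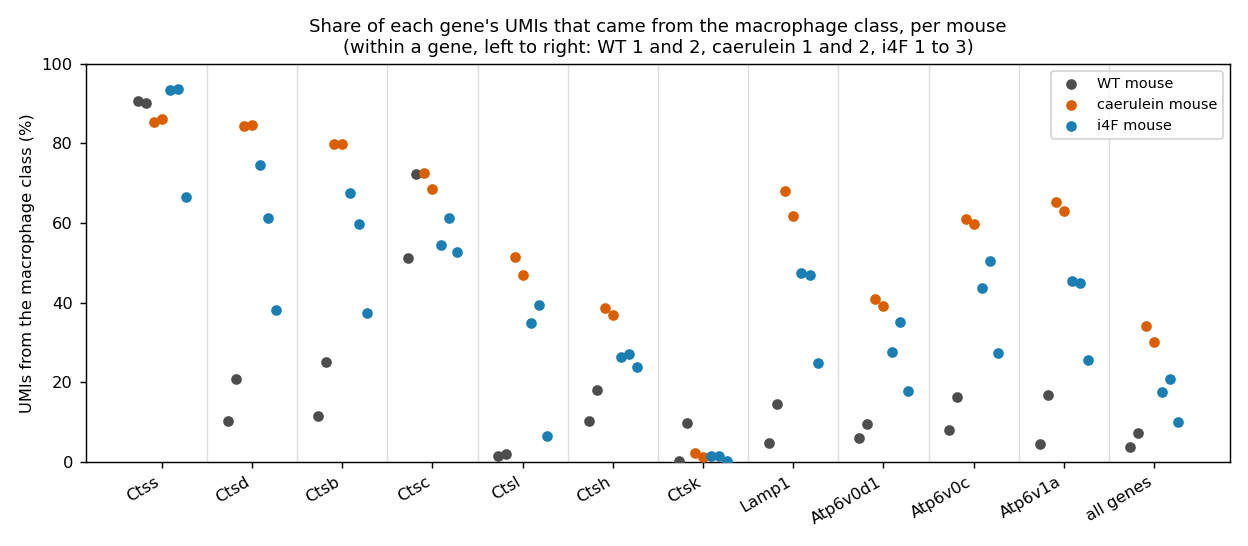
Share of each gene's UMIs (percent, vertical axis) that came from macrophage-class cells, 1 point a mouse, for 11 members and for all genes together, colored by condition. Ctsd and Ctsb lie at 10.2% to 25.1% in WT mice and at 79.7% to 84.6% in caerulein mice, while Ctss lies above 66% in every mouse and Ctsk stays low.

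Summed over all cells of a mouse, 11 of the 34 members tested were higher after caerulein and 0 lower, against 9.08% of all genes called in either direction. In these sums fewer cells of a type and less RNA per cell cannot be told apart. Ctsd was at 259 and 296 CPM in WT mice, 4199 and 4246 CPM in caerulein mice and 1258, 971 and 457 CPM in i4F mice 1 to 3. Both caerulein mice lay far above every other mouse, and i4F mouse 3 was the lowest of the i4F mice. The log2 fold change against WT was 3.93 after caerulein (adjusted p = 0.031) and 1.69 in i4F (adjusted p = 0.07). The other cathepsins called after caerulein were Ctss (log2 3.85, adjusted p = 0.031), Ctsc (3.08, 0.033), Ctsb (2.96, 0.032), Ctsa (2.13, 0.031), Ctsh (1.70, 0.033) and Ctsz (1.45, 0.047). Ctsc encodes the dipeptidyl peptidase that activates granule proteases, Ctsa the protective protein of the β-galactosidase and neuraminidase complex, Ctsh an aminopeptidase and Ctsz a carboxypeptidase. Pump genes called were Atp6v0d1, a stalk subunit of V0 (1.5, 0.039), Atp6v0a1, one of the proton-path subunit isoforms (1.16, 0.045), and Atp6v1c1, a V1 stalk subunit (0.92, 0.048), and Lamp1 was called with them (1.41, 0.047). Without either WT mouse, either caerulein mouse or i4F mouse 2, none of the 11 was called (adjusted p from 0.064 to 0.26), and without i4F mouse 1, 7 of them were. With i4F mouse 3 left out, 25 of 34 members were called after caerulein, 21 higher and 4 lower, where 46.4% of all genes were. With a term for the library name series, which WT mouse 1 shares with the i4F libraries and WT mouse 2 with the caerulein libraries, none of the 11 was called (adjusted p from 0.192 to 0.204).

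In i4F against WT, 0 of 34 members were called by edgeR in the all-cell sums (0% of all genes), with 15 at an unadjusted p under 0.05 (34.8% of all genes) and 10 called by DESeq2 (23.7%). In i4F against caerulein 0 were called by edgeR (0% of all genes), with 15 at an unadjusted p under 0.05 (14.4%) and 5 by DESeq2 (5.4%), and without i4F mouse 3, 5 were lower (8.61% of all genes). When i4F mouse 3 was left out, 22 of 34 passed against WT, 17 higher and 5 lower, where 49.8% of all genes did. Leaving out TMM scaling moved the median log2 fold change of all genes in the all-cell sums from −0.06 to −0.45 after caerulein and from 0.04 to −0.34 in i4F, and in acinar cells after caerulein from 0.10 to 0.69. The shift after caerulein was from −0.07 to −0.25 in ductal and from −0.04 to −0.19 in stellate cells, and in i4F from 0.14 to 0.32 in acinar, 0.03 to 0.32 in B, 0.01 to −0.13 in NK/T, 0.02 to −0.14 in stellate, −0.03 to −0.19 in ductal cells and −0.02 to −0.12 in macrophages. Of the members called in any class, none changed direction with that scaling.

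In macrophages 3 of the 11 cathepsins tested, Ctsd, Ctsb and Ctsa, were higher after caerulein and 1, Ctsf, was lower. Ctsd was at 829 and 963 CPM in WT macrophages, 9541 and 11046 CPM in caerulein macrophages and 5061, 2821 and 1633 CPM in i4F macrophages. Every treated mouse lay above both WT mice, and both caerulein mice above every i4F mouse. The mean was 10293 ± 1064 CPM after caerulein against 896 ± 94.4 CPM in WT (SD, n = 2 each), a log2 fold change of 3.52 ± 0.52 (SE, adjusted p = 0.0328). Ctsb, at 1492 and 1826 CPM in WT, was at 7874 and 7695 CPM after caerulein (log2 2.23 ± 0.43, adjusted p = 0.0387). Ctsa rose from 274 and 286 CPM to 691 and 668 CPM (log2 1.28 ± 0.29, adjusted p = 0.0487). One member fell: Ctsf, a cysteine protease, was at 11.7 and 31.2 CPM in WT and at 1.72 and 2.21 CPM after caerulein (log2 −3.56 ± 0.73, adjusted p = 0.0423). These were 4 of 29 members tested, against 5.66% of all genes called. Leaving out either WT or either caerulein mouse took the Ctsd call past the threshold, with adjusted p from 0.079 to 0.24. The calls of Ctsb, Ctsa and Ctsf were lost without any single mouse except i4F mouse 3 (0.052 to 0.25). Without i4F mouse 3, 8 members were higher and 2 lower, where 16.4% of all genes were called, and Ctsl, Lamp1 and Atp6v0d1 were among the higher ones. All 4 calls were lost with the term for the name series (0.0708 to 0.138).

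In caerulein macrophages 17 of 29 members had an unadjusted p under 0.05 (27.6% of all genes), and DESeq2 called 10 (13.7% of all genes), adding Ctsl, Ctsz, Lamp1, Atp6v0d1, Atp6v1c1 and Atp6v1d to the 4 of edgeR. The next values are of members that did not pass edgeR's test. Ctsl was at 353 and 244 CPM in WT and 2126 and 1939 CPM after caerulein (log2 2.77 ± 0.74, adjusted p = 0.0659). Lamp1, the abundant glycoprotein of the lysosomal membrane, was at 163 and 221 CPM against 476 and 540 CPM (log2 1.40 ± 0.34, adjusted p = 0.0555). Ctss was at 1354 and 1061 CPM in WT macrophages and 2408 and 1922 CPM after caerulein, with an adjusted p of 0.153. Lamp2, needed for autophagosome fusion and chaperone-mediated autophagy, was at 229 and 218 CPM against 254 and 248 CPM (adjusted p = 0.808). Among the 16 V-ATPase genes tested, 0 were called by edgeR and 3 by DESeq2, 13 had a log2 fold change above 0 and the median was 0.61, against −0.02 over all genes. Atp6v0d1 was at 114 and 104 CPM in WT and 219 and 206 CPM after caerulein (log2 0.97 ± 0.25, adjusted p = 0.063). The 11 cathepsins had a median of 0.64, with 9 above 0.

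In i4F macrophages, 0 of 29 members were called against WT by edgeR (0.00828% of all genes), 12 had an unadjusted p under 0.05 (19.9% of all genes), and DESeq2 called 5 (Ctsd, Ctsl, Lamp1, Atp6v0d1 and Atp6v1e1) and 4.4% of all genes. Ctsl was at 2445, 2687 and 452 CPM in i4F mice 1 to 3, so that mice 1 and 2 lay above the caerulein mice and mouse 3 near the WT level (log2 2.65 ± 0.71, adjusted p = 0.145). Ctsd had a log2 fold change of 1.82 ± 0.46 (adjusted p = 0.144). Atp6v1e1, a V1 stalk subunit, was at 423, 405 and 221 CPM against 122 and 166 CPM in WT (log2 1.28 ± 0.34, adjusted p = 0.146). With i4F mouse 3 left out, 10 of 29 members passed, where 12.4% of all genes did, including Ctsl (log2 3.13, adjusted p = 0.00269), Ctsd (2.16, 0.0089) and Atp6v1e1 (1.54, 0.00978). Between i4F and caerulein macrophages, 0 members were called by edgeR (1.67% of all genes), with 4 at an unadjusted p under 0.05 (22.2% of all genes) and Ctsb and Ctsd called by DESeq2 (8.98%). The log2 fold change of Ctsd was −1.70 in that comparison (adjusted p = 0.083), and without i4F mouse 3 it was the one member called (−1.37, 0.0375), with 10.1% of all genes.

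**Figure D2:**
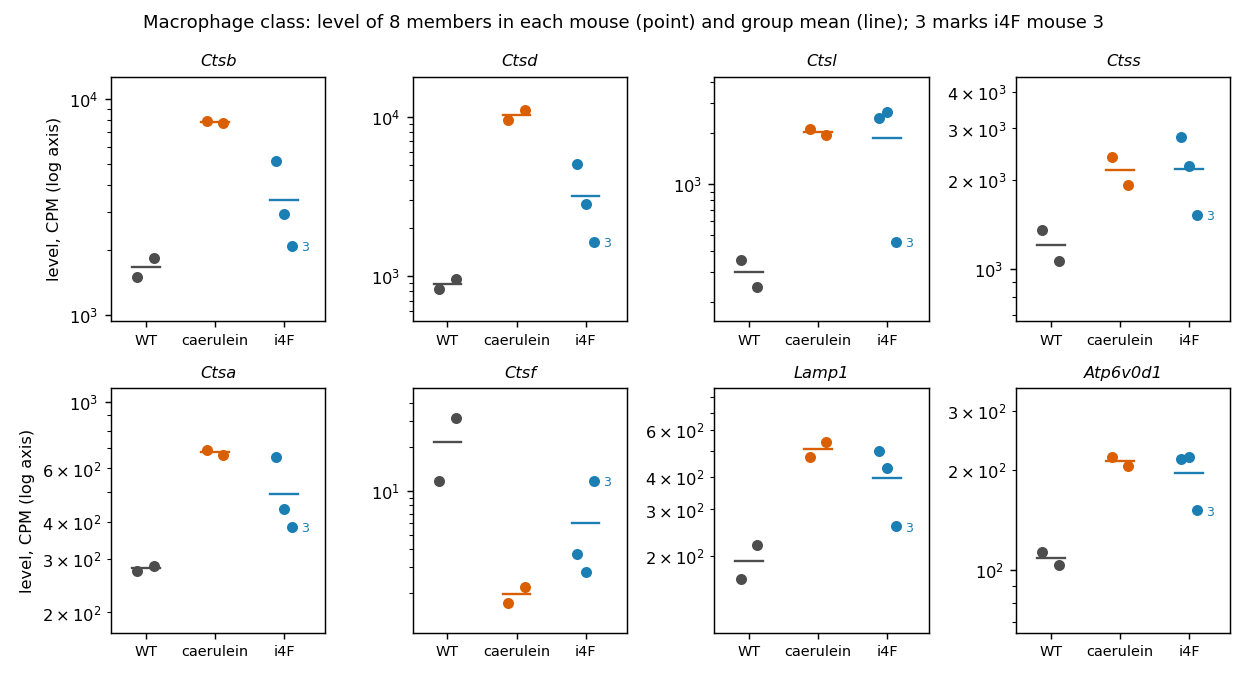
Level in macrophage-class cells (CPM) of 8 members in each mouse, grouped as WT, caerulein and i4F, with 1 point a mouse and a bar at the group mean. Ctsd sits at 829 and 963 CPM in WT mice and at 9541 and 11046 CPM in caerulein mice, and i4F mouse 3 is the lowest i4F point for Ctsl, at 452 CPM.

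The macrophage class pooled labels with unlike makeup, and all of them were kept. The second i4F label held 127690 CPM of neutrophil markers against 641 CPM of macrophage markers. In the third caerulein label these were 51269 and 984 CPM. The second WT label held 1691 CPM of dendritic against 696 CPM of macrophage markers. It gave 59 of 104 cells of the class in WT mouse 1 and 96 of 514 in WT mouse 2. The neutrophil marker list summed to 797 and 84.8 CPM in WT, 638 and 478 CPM after caerulein and 1714, 6196 and 4744 CPM in i4F mice. The dendritic list summed to 896 and 621 CPM in WT, 5.93 and 4.84 CPM after caerulein and 81.8, 51.7 and 889 CPM in i4F mice. When the class was limited to cells with at least 3 UMIs of the complement genes C1qa, C1qb and C1qc, 6 of 29 members were called after caerulein (9.38% of all genes) and 2 of 29 in i4F (2.33%). In these cells Ctsd had a log2 fold change of 2.93 after caerulein (adjusted p = 0.0103) and of 1.52 in i4F (0.0455). Between the treatments it differed by −1.40 in i4F against caerulein (adjusted p = 0.0282). Atp6v1e1 was the other i4F call (log2 1.32, adjusted p = 0.0455). Ctsb (1.71, 0.0149), Ctsl (2.34, 0.0386), Atp6v0d1 (0.86, 0.0449), the V1 stalk gene Atp6v1d (1.02, 0.0396) and Ctsf (−4.16, 0.0182) were the other caerulein calls, while Ctsa was not called (0.85, 0.0614). Among the single labels, Ctsd averaged 12421 CPM in the first caerulein macrophage label, 5186 CPM in the second, 1547 CPM in the first WT label and 3615 CPM in the first i4F label.

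Stellate cells, the collagen-producing fibroblast-like cells of the pancreas, showed higher Ctsc and Ctss in both treatments. Ctsc was at 13.1 and 13.0 CPM in WT stellate cells, 188 and 198 CPM after caerulein and 165, 148 and 81.2 CPM in i4F mice. Every treated mouse lay above both WT mice. The log2 fold change was 3.89 after caerulein and 3.33 ± 0.35 in i4F (adjusted p = 0.011). Ctss was at 0.33 and 1.40 CPM in WT (2 and 13 UMIs), 111 and 67.3 CPM after caerulein and 33, 29.2 and 20 CPM in i4F mice, with log2 fold changes of 6.57 and of 4.88 ± 0.56 (adjusted p = 0.011 in i4F). Ctsc and Ctss were the 2 members of 31 called in i4F, against 20.6% of all genes. Both were called after caerulein as well, together with 5 other members, which made 7 of 31 against 17.1% of all genes. When i4F mouse 3 was left out, there were 12 of 31, 7 higher and 5 lower, where 39.7% of all genes were called.

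The other caerulein calls were of smaller size or in low genes. Ctsh was at 398 and 372 CPM in WT and 816 and 904 CPM after caerulein (log2 1.16 ± 0.20, adjusted p = 0.0194), while i4F mice held 392, 369 and 429 CPM. Atp6v0d1 was at 83.7 and 85.7 CPM in WT, 192 and 169 CPM after caerulein (log2 1.09 ± 0.19, adjusted p = 0.0194) and 125, 109 and 105 CPM in i4F. Ctsd was at 331 and 332 CPM against 671 and 623 CPM after caerulein (log2 0.97 ± 0.24, adjusted p = 0.0385). Lower after caerulein were Lamp2, from 425 and 378 CPM to 186 CPM in both mice (log2 −1.11 ± 0.30, adjusted p = 0.0481), and Atp6v0e2, a small V0 subunit, from 10.8 and 14.2 CPM to 0.386 and 0.395 CPM (10 and 3 UMIs, log2 −4.99 ± 0.76, adjusted p = 0.0146). Of the 17 V-ATPase genes tested in stellate cells, 1 was thus higher and 1 lower, with a median log2 fold change of 0.16 against −0.04 over all genes. Lamp2 was at 190, 183 and 315 CPM in i4F mice (log2 −0.81, adjusted p = 0.07, and −1.11 with adjusted p = 0.00121 without i4F mouse 3).

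Several stellate values turned on i4F mouse 3. Ctsf, chosen after its values were seen, was at 97.9 and 102 CPM in WT, 7.98 and 9.73 CPM after caerulein, 6.08 and 4.61 CPM in i4F mice 1 and 2, and 64.6 CPM in i4F mouse 3. With all mice it did not pass edgeR's test (adjusted p = 0.0889 after caerulein and 0.174 in i4F), while DESeq2 called it after caerulein. Without i4F mouse 3 it passed edgeR's test in both (0.000139 and 5.74e-05). Ctsl was at 1464 and 1417 CPM in WT, 954 and 872 CPM after caerulein, and 935, 1031 and 1553 CPM in i4F mice 1 to 3. Ctsk, at 244 and 250 CPM in WT, was at 225 and 203 CPM after caerulein (log2 −0.20, adjusted p = 0.552). Without i4F mouse 3, 13 of 31 members passed in i4F against WT, where 47.8% of all genes did. Between i4F and caerulein stellate cells 0 members were called by edgeR (0.459% of all genes), 5 had an unadjusted p under 0.05 (17% of all genes), and DESeq2 called 5 (Ctsd, Ctsh, Ctss, Atp6v0d1 and Atp6v0e2) and 5.33% of all genes. With i4F mouse 3 left out, 2 members were higher and 7 lower in that comparison, where 11.5% of all genes were called.

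Labels within the stellate class differed by condition. In the caerulein mice the whole class, 3675 and 2040 cells, was the first activated stellate label. WT stellate cells were mostly in the quiescent labels (828 and 1911 cells in the first, 196 and 435 in the second), and i4F mouse 3 was mostly in the second activated label (1167 cells), unlike i4F mice 1 and 2 (144 and 126). Macrophage markers moved with the same contrast: all 8 were listed, and they summed to 7.49 to 26.6 CPM in WT stellate cells, 471 to 730 CPM after caerulein and 136 to 230 CPM in i4F mice. Cells without macrophage UMIs are here those without a UMI of C1qa, C1qb, C1qc or Lyz2. The last is not among the 8 markers, and UMIs of the other markers can remain. This choice removed unlike shares of stellate cells: 3.95% and 5.23% in WT and 55.9% and 18.9% after caerulein. In i4F mice 1 to 3 it removed 59.6%, 40.4% and 12.7%. The part of these unequal shares in the values below was not tested. Among stellate cells without macrophage UMIs, Ctsc was at 12.4 and 11.3 CPM in WT and 142 and 176 CPM after caerulein. It was at 160, 139 and 70.6 CPM in i4F mice, and its log2 fold change after caerulein was 3.75. Ctsd in these cells was at 327 CPM in both WT mice and at 282 and 284 CPM after caerulein (log2 −0.21, adjusted p = 0.568). Ctss was at 8.19 and 3.76 CPM after caerulein and 7.12, 5.52 and 11.8 CPM in i4F mice, and no fold is given against WT, with 2 and 1 UMIs. The call of Lamp2 was lost in these cells (log2 −1.08, adjusted p = 0.0524). In all, 5 of 30 members were called in these cells after caerulein (14% of all genes) and 2 of 30 in i4F (17.8%).

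Leaving out single mice changed most stellate calls. After caerulein, Ctsc was lost without WT mouse 1 (adjusted p = 0.078), WT mouse 2 (0.055) or caerulein mouse 1 (0.069), and Ctss without WT mouse 1 (0.062) or caerulein mouse 1 (0.061). Ctsh, Atp6v0d1 and Atp6v0e2 were lost without any WT or caerulein mouse (0.067 to 0.15), and Ctsd and Lamp2 also without i4F mouse 1 or 2 (0.054 to 0.23). In i4F, Ctsc was lost without WT mouse 1 (0.11), WT mouse 2 (0.074) or i4F mouse 2 (0.052), and Ctss without the same mice (0.11, 0.056 and 0.052). With the term for the name series all 7 caerulein calls (0.0694 to 0.172) and both i4F calls (0.0569 to 0.0716) were lost.

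**Figure D3:**
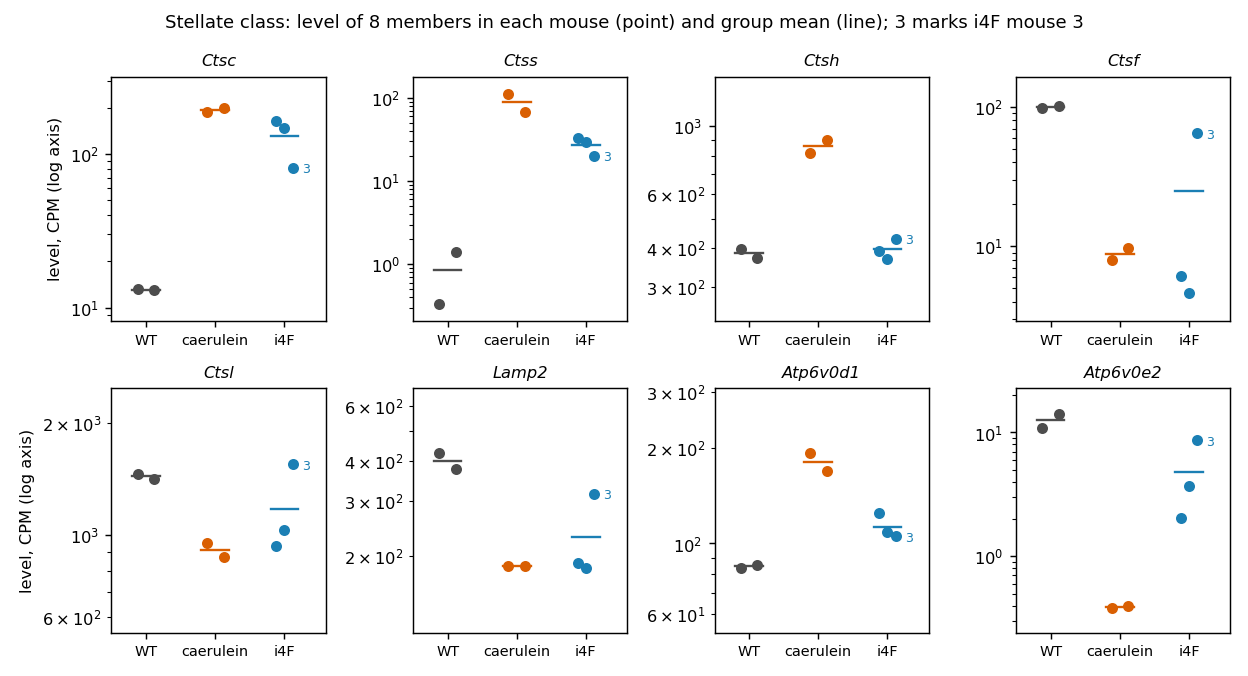
Level in stellate cells (CPM, log axis) of 8 members in each mouse, grouped by condition, with i4F mouse 3 marked by its number. Ctsc lies at about 13 CPM in WT mice and at 81.2 to 198 CPM in all treated mice, and for Ctsf i4F mouse 3 stays near the WT mice while all other treated mice lie below 10 CPM.

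Endothelial cells of the caerulein mice carried higher levels of 6 cathepsins, and the same cells also carried macrophage RNA. Ctsd was at 218 and 182 CPM in WT, 2342 and 2144 CPM after caerulein and 341, 273 and 310 CPM in i4F mice. The caerulein mice lay apart from all others (log2 3.49 ± 0.27 against WT, adjusted p = 0.00124). Ctsb was at 376 and 373 CPM in WT and 2515 and 1906 CPM after caerulein (log2 2.56 ± 0.39, adjusted p = 0.00758). Ctsh was at 21.5 and 13.4 CPM against 259 and 163 CPM (log2 3.61 ± 0.43, adjusted p = 0.0032), and Ctss at 0 and 4.19 CPM (0 and 10 UMIs) against 535 and 345 CPM (log2 7.62 ± 1.11, adjusted p = 0.00657). Ctsa (1.81 ± 0.26, 0.0061) and Ctsc (1.68 ± 0.36, 0.038) were the other calls. These were 6 of 27 members, against 4.11% of all genes, and without i4F mouse 3 there were 11, all higher, against 11%. With all mice none of the 14 V-ATPase genes was called by edgeR (Atp6v0c, Atp6v0d1 and Atp6v1d were without i4F mouse 3), and all 14 lay above 0, with a median log2 fold change of 0.58 against 0.00 over all genes. Among endothelial cells without macrophage UMIs that median was 0.12.

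Macrophage markers summed to 23.9 to 29.7 CPM in WT endothelial cells, 2095 to 3798 CPM after caerulein and 129 to 488 CPM in i4F mice. A UMI of C1qa, C1qb, C1qc or Lyz2 was found in 1.34% and 5.69% of endothelial cells in WT. The shares were 43.4% and 14.1% after caerulein and 34.7%, 23% and 12% in i4F mice. Among cells without such a UMI (1107 and 1143 in WT, 317 and 237 after caerulein), 0 of 25 members were called by edgeR, as were 0% of all genes. At an unadjusted p under 0.05 there were 6 members. For cells without macrophage UMIs of any class, no share of all genes at that unadjusted threshold is given. Ctsd was then at 221 and 187 CPM in WT and 318 and 355 CPM after caerulein (log2 0.72, adjusted p = 0.318). Ctsb was at 384 and 376 CPM against 737 and 773 CPM (log2 0.99, adjusted p = 0.256). Ctsc, which had been higher, had a log2 fold change of −0.41 (adjusted p = 0.72). The values without macrophage UMIs thus lay closer to WT for each of these genes. For Ctsd and Ctsb both caerulein mice still lay above both WT mice, but neither gene was called. The share of all genes separated in this way is not given.

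**Figure D4:**
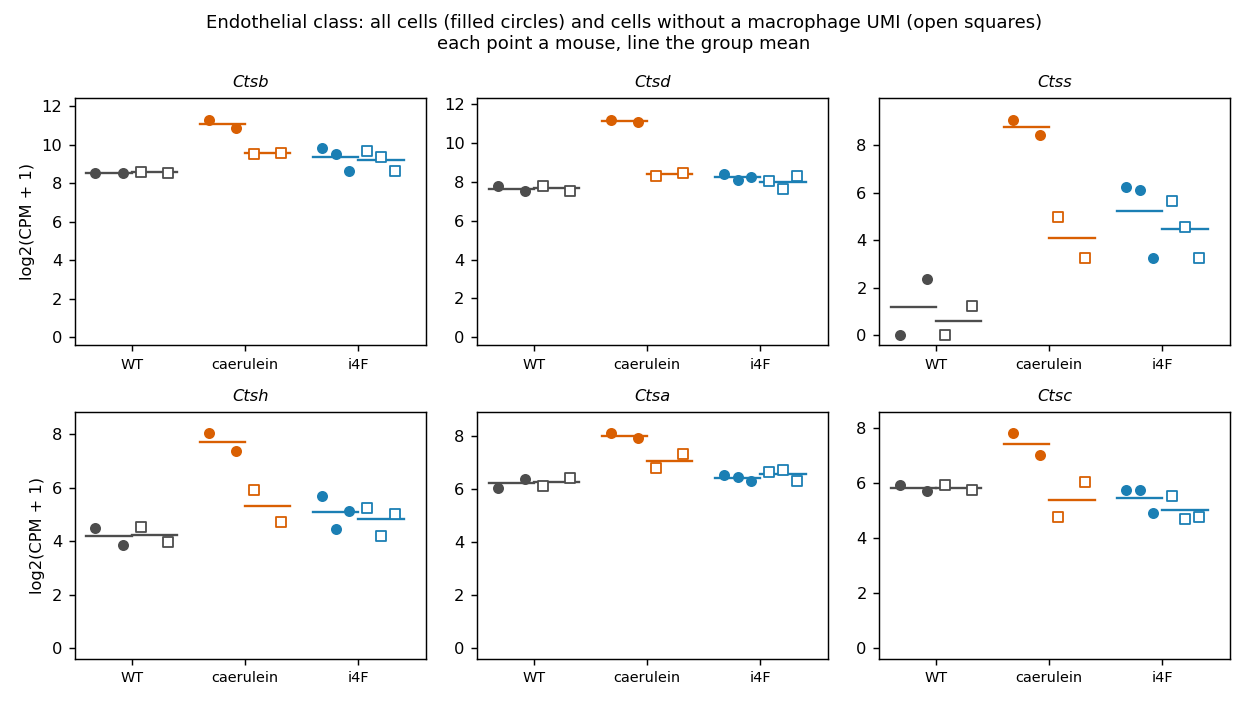
Level in endothelial cells as log2(CPM + 1) of 6 cathepsins in each mouse. Filled circles are all endothelial cells and open squares those without a UMI of C1qa, C1qb, C1qc or Lyz2. In the caerulein mice the squares lie below the circles for each gene, for example 318 and 355 CPM against 2342 and 2144 CPM for Ctsd, while in WT mice they nearly coincide for Ctsd and Ctsb.

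The i4F endothelial cells had 0 of 27 members called against WT by edgeR (0.81% of all genes), 5 at an unadjusted p under 0.05 (Ctsb, Ctsd, Ctsh, Ctso and Ctss, with 18.2% of all genes) and 0 by DESeq2 (3.58%). When i4F mouse 3 was left out, there were 3 of 27, where 14.3% of all genes passed, and Ctss was among them (log2 4.99, adjusted p = 0.0048, against 4.45 and 0.0882 with all mice). Against caerulein, 4 of 27 were called lower (0.601% of all genes): Ctsd (log2 −2.87 ± 0.23, adjusted p = 0.0042), Ctsh (−2.62 ± 0.38, 0.030), Ctsc (−2.01 ± 0.34, 0.047) and Ctsa (−1.6 ± 0.23, 0.030). Without i4F mouse 3, these 4 and Ctsb were lower (0.911% of all genes). Among cells without macrophage UMIs these were −0.39, −0.67, −0.45 and −0.50, with 0 of 25 called by edgeR (0% of all genes) and 1, Lamp1, at an unadjusted p under 0.05. Of the caerulein calls against WT, that of Ctsd held in every fit without 1 mouse. With the term for the name series Ctsd, Ctsh and Ctss stayed called (adjusted p from 0.00986 to 0.031), while Ctsb, Ctsa and Ctsc and the 4 calls against caerulein were lost. Without caerulein mouse 1 the adjusted p was 0.064 for Ctsh, 0.084 for Ctss, and 0.12 for Ctsb and Ctsa, and without WT mouse 1 it was 0.061 for Ctsb and 0.071 for Ctsa. Ctsc was lost without WT mouse 1 or 2, i4F mouse 1 or 2, or caerulein mouse 1 (log2 1.19, adjusted p = 0.46). Against caerulein, Ctsd was lost without i4F mouse 2 (0.052) or caerulein mouse 1 (0.083), and the other 3 without i4F mouse 1 or 2 or either caerulein mouse (0.067 to 0.77).

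In ductal cells, which line the pancreatic ducts, Ctss and Ctsd were called after caerulein, 2 of 31 members against 3.53% of all genes. With i4F mouse 3 left out, there were 16, 13 higher and 3 lower, against 32.2%. Ctss was at 0.604 and 2.75 CPM in WT (4 and 12 UMIs) and 91.7 and 105 CPM after caerulein (log2 5.94 ± 1.11, adjusted p = 0.0321). Ctsd was at 208 and 204 CPM against 877 and 1034 CPM (log2 2.21 ± 0.43, adjusted p = 0.0362), and i4F mice held 562, 469 and 215 CPM. Mouse 3 was again at the WT level. Macrophage markers summed to 16.5 to 58.0 CPM in WT ductal cells, 573 to 772 CPM after caerulein and 87.6 to 574 CPM in i4F mice. Among ductal cells without a UMI of C1qa, C1qb, C1qc or Lyz2, 0 of 26 members were called by edgeR (3.97% of all genes). In these cells 9 members had an unadjusted p under 0.05, a count with no share of all genes beside it. Among all ductal cells that share was 30.7%. Ctsd had a log2 fold change of 1.34 (adjusted p = 0.062) and Ctss passed no filter. Both calls were lost without either WT mouse, either caerulein mouse or i4F mouse 2 (adjusted p from 0.074 to 0.26), and with the term for the name series (0.282). In i4F against WT 0 of 31 were called by edgeR (0.00861% of all genes), with 8 at an unadjusted p under 0.05 (17.4% of all genes) and Ctse, Ctss and Ctsw called by DESeq2 (3.21%). When i4F mouse 3 was left out, 16 passed, 14 higher and 2 lower, where 26.5% of all genes did. Against caerulein 0 were called by edgeR (0.387% of all genes), with 5 at an unadjusted p under 0.05 (16.9%) and Ctsh called by DESeq2 (2.22%), and without i4F mouse 3 Ctsd was the one called (log2 −0.88, adjusted p = 0.046, 3.23% of all genes).

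Acinar cells, which make the digestive enzymes, had no member called by edgeR in any comparison with all mice. Against 0.0359% of all genes called after caerulein, 0.0808% in i4F and 0.126% between the treatments, 0 of 29 members passed in each. At an unadjusted p under 0.05 there were 5, 6 and 3 members, with 21.9%, 25.1% and 18.8% of all genes. DESeq2 called Ctsh and Ctss after caerulein (8.15% of all genes), Ctse and Ctss in i4F (8.01%) and Ctsh between the treatments (5.42%). Without i4F mouse 3, 4 members were higher and 2 lower after caerulein (19.4% of all genes), and 2 higher and 2 lower in i4F against caerulein (22.5%). Ctsb, the cathepsin known to activate trypsinogen, had a log2 fold change of 1.01 after caerulein (adjusted p = 0.171) and of 0.03 among acinar cells without macrophage UMIs. Ctsl was at 1723 and 1100 CPM in WT, 1582 and 1280 CPM after caerulein and 1613, 1201 and 1032 CPM in i4F mice, so that the groups overlapped. Ctsh was at 36.5 and 21.9 CPM in WT and at 144 and 149 CPM after caerulein (log2 2.33 ± 0.44, adjusted p = 0.0644, and 0.00268 without i4F mouse 3), and i4F mice held 78.6, 39.6 and 50.5 CPM. Without macrophage UMIs Ctsh was the 1 of 27 members called (log2 1.96, adjusted p = 0.0322), where 5.62% of all genes were. Ctss was at 136 and 55.9 CPM after caerulein and 61.4, 44.6 and 26 CPM in i4F mice, with 0 and 2 UMIs in WT, so no fold is given.

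Macrophage markers summed to 14.3 to 75.8 CPM in WT acinar cells, 641 to 1162 CPM after caerulein and 151 to 489 CPM in i4F mice, and in WT 2 of the 8 (Adgre1 and Fcgr1) were at 0. Only 3 of the 18 acinar markers were listed in the tables used here, and they summed to 11535 and 18903 CPM in WT, 5241 and 4035 CPM after caerulein and 3161, 3360 and 10474 CPM in i4F acinar cells. The ductal marker list summed to 2485 and 1629.5 CPM in WT acinar cells and to 13588 and 15353 CPM after caerulein. In i4F mice 1 to 3 it summed to 12246, 9760 and 3823 CPM. The part of these marker lists in the acinar values was not tested. The 15 V-ATPase genes had a median log2 fold change of −0.02 after caerulein with 7 above 0, against 0.10 over all genes, and without TMM scaling Lamp1, Lamp2 and pump genes such as Atp6v0c and Atp6v0a1 changed sign. With i4F mouse 3 left out, 9 of 29 members passed in i4F, 7 higher and 2 lower, where 32.7% of all genes did.

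NK/T and B cells were compared between i4F and WT alone. In NK/T cells 0 of 19 members were called by edgeR (1.51% of all genes), with Ctsd, Ctss, Ctsw, Ctsz and Atp6v0d1 at an unadjusted p under 0.05 (14.3% of all genes) and 0 by DESeq2 (2.8%). Ctsw was at 598 and 459 CPM in WT and 137, 206 and 342 CPM in i4F mice (103, 99, 25, 53 and 375 UMIs). All 3 i4F mice lay below both WT mice (log2 −1.16 ± 0.37, adjusted p = 0.201). When i4F mouse 3 was left out, it was the one member called (−1.59, 0.0397), with 3.13% of all genes. The NK marker list summed to 5769 and 2970 CPM in WT and 1077, 555 and 939 CPM in i4F mice, and its part in the Ctsw value was not tested. In B cells 0 of 24 were called by edgeR (0.447% of all genes), with Ctsd, Ctsl and Lamp1 at an unadjusted p under 0.05 (9.06% of all genes) and 0 by DESeq2 (1.2%), and 0 by edgeR without i4F mouse 3 (1.4%). Ctsd was at 51.7 and 101 CPM in WT B cells and 387, 218 and 114 CPM in i4F (adjusted p = 0.447), while macrophage markers there summed to 23.2 and 26.2 CPM against 822, 351 and 116 CPM.

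**Figure D5:**
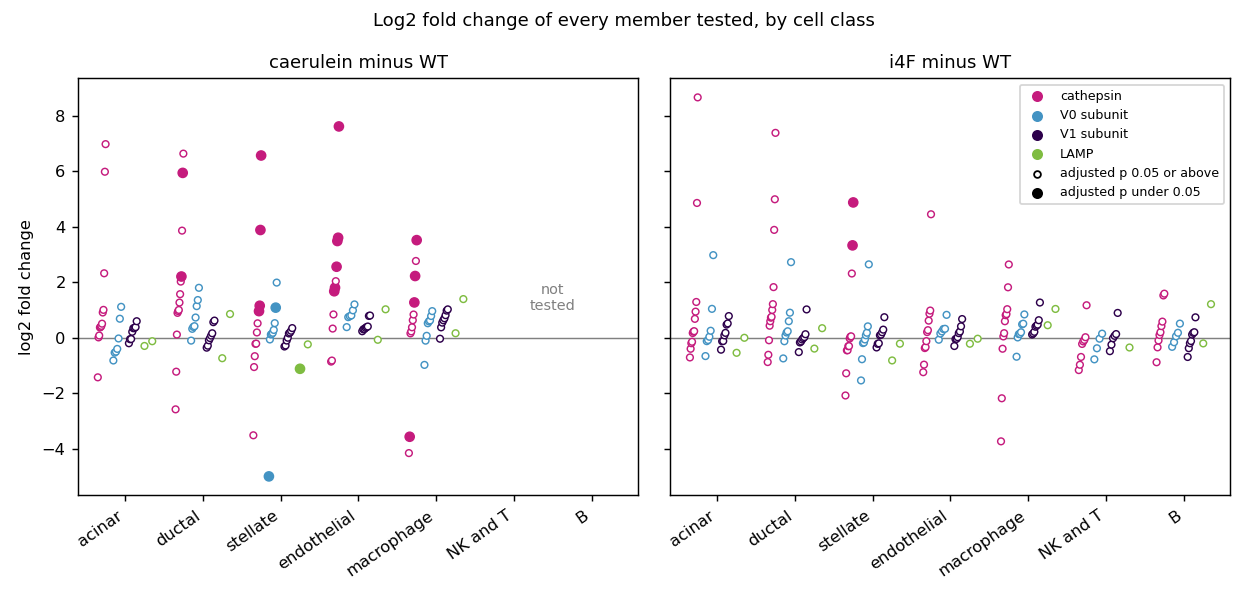
Log2 fold change of each tested member in each cell class, for caerulein minus WT and i4F minus WT, with filled points for an adjusted p under 0.05. After caerulein the called cathepsins lie mostly above 0 and most pump genes between −1 and 2, and in i4F the called points are Ctsc and Ctss in stellate cells.

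The other genes of the lysosome were read from lists of related genes. Of 13 partners of the pump whose symbols fall outside the rule, 12 were tested in stellate cells, where 2 were called after caerulein (17.1% of all genes) and 1 in i4F (20.6%). Tcirg1, the a3 subunit of V0, was higher there after caerulein (log2 1.01 ± 0.25, adjusted p = 0.0387) and in i4F (1.15, 0.0258). Without macrophage UMIs the caerulein value was 0.89 (0.0521) and the i4F value 1.14 (0.0269). Atp6ap2, an accessory subunit, was lower in stellate cells after caerulein (−1.03, 0.0205). Tcirg1 was also the one partner called in the all-cell sums after caerulein (1.67, 0.0472), where 9.08% of all genes were. With all mice, edgeR called no partner in the other 6 cell classes. There 0 to 4 had an unadjusted p under 0.05 per class and comparison, and DESeq2 called 0 to 3. Both were highest in caerulein macrophages, where the shares of all genes were 27.6% and 13.7%. Without i4F mouse 3, edgeR called 4 in acinar cells after caerulein (19.4% of all genes) and 4 in i4F (32.7%). In macrophages it then called 4 after caerulein (16.4%) and 5 in i4F (12.4%). In acinar cells without macrophage UMIs 1 was called after caerulein (5.62%). Of 41 other lysosomal hydrolases, 16 were higher and 0 lower after caerulein in the all-cell sums, where 9.08% of all genes were called, with a median log2 fold change of 0.80. In macrophages 3 of 41 hydrolases were called after caerulein, where 5.66% of all genes were. Among them Glb1, the acid β-galactosidase, was higher (1.75) and Gm2a, the GM2 activator, lower (−1.6). Lgmn, the asparaginyl endopeptidase that processes cathepsins, averaged 26.3 CPM in WT stellate cells, 193 CPM after caerulein and 86.4 CPM in i4F (log2 2.87 and 1.72, both called). In endothelial cells it averaged 25.5, 508 and 131 CPM (log2 4.32 and 2.34, both called). In i4F stellate cells 5 of 41 hydrolases were called, some higher and some lower (20.6% of all genes). In i4F endothelial cells 1 of 34 was called, Lgmn (0.81% of all genes). After caerulein the hydrolases called in endothelial cells were 4 of 34 (4.11% of all genes), in ductal cells 2 of 41 (3.53%), in stellate cells 3 higher and 2 lower of 41 (17.1%) and in acinar cells 0 of 40 by edgeR (13 at an unadjusted p under 0.05, where 21.9% of all genes were, and 6 by DESeq2, where 8.15% were). Without i4F mouse 3, edgeR called 8 hydrolases after caerulein in endothelial (11% of all genes), 12 in ductal (32.2%) and 21 in stellate cells (39.7%). It then called 11 in acinar cells (19.4%) and 28 in the all-cell sums (46.4%). Among cells without macrophage UMIs, it called 0 in endothelial and in ductal cells, where 0% and 3.97% of all genes were called. There 3 and 5 hydrolases had an unadjusted p under 0.05. In such stellate cells 4 were called (14% of all genes) and in such acinar cells 4 of 33 (5.62%). The log2 fold change of Lgmn in such cells after caerulein was 2.06 in stellate (adjusted p = 0.0106) and 2.42 in endothelial cells (0.0934), and in i4F 1.59 (0.0136) and 2.07 (0.0726). In macrophages limited by C1q UMIs, Glb1 was again called (1.34, 0.0393), while Gm2a was not (−0.23, 0.673).

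Among 24 other lysosomal membrane proteins, 5 of 22 were higher in caerulein macrophages (5.66% of all genes called): Scarb2, the receptor of β-glucocerebrosidase (log2 1.6), Lamtor4 (1.45) and Lamtor5 (1.15) of the Ragulator complex, Cd68 (1.34) and Tmem192 (1.26). Stellate cells had 5 higher and 1 lower of 23 after caerulein and 3 higher and 3 lower in i4F, near the 17.1% and 20.6% of all genes. The higher ones in both included Laptm5 (4.52 and 3.06) and Cd68 (4.11 and 1.81), which mark leukocytes, and Scarb2 (1.18 and 0.71). In stellate cells without macrophage UMIs, Scarb2 was again called in both (1.22 and 0.72), Cd68 in neither (0.63 and 0.70), and Laptm5 in i4F alone (2.97, against 1.94 with adjusted p = 0.129 after caerulein). Endothelial cells had 5 of 18 higher after caerulein (4.11% of all genes), led by Cd68 (6.05) and Laptm5 (5.03), and among cells without macrophage UMIs 0 were called by edgeR (3 at an unadjusted p under 0.05), and Laptm5 had a log2 fold change of 2.32 (adjusted p = 0.331). Of 13 genes of mannose 6-phosphate tagging and sorting, 2 were called in caerulein macrophages, where 5.66% of all genes were. Both were higher: Igf2r, the large mannose 6-phosphate receptor (2.34), and Ap1s1, an adaptor subunit (1.62). In stellate cells 2 of the 13 were higher and 1 lower after caerulein, and 2 higher and 2 lower in i4F, where 17.1% and 20.6% of all genes were called. Ap1s1 was higher there after caerulein and in i4F (1.58 and 1.25), Gga2, a sorting adaptor, after caerulein (0.86) and Gnptab, which makes the tag, in i4F (1.36), while Igf2r was lower in i4F (−1.22). Sort1, the sortilin receptor, was lower after caerulein and in i4F (−2.45 and −2.82), and without macrophage UMIs at −2.94 (adjusted p = 0.0572) and −2.62 (0.047). Of the 16 cathepsin inhibitors, 10 were tested in caerulein macrophages and 1 was called, where 5.66% of all genes were. It was Cstb, the cytosolic inhibitor cystatin B, at 1527 ± 172 CPM against 414 CPM (log2 1.88). Cstb was also higher in ductal cells (1.5), where 2 of 6 inhibitors were called (3.53% of all genes). In endothelial cells Cstb was higher as well (2.34), as the 1 of 5 inhibitors called (4.11%). Without macrophage UMIs the ductal value was 1.47 (adjusted p = 0.0427) and the endothelial one 0.63 (0.437). Serpinb1a, an inhibitor of neutrophil proteases, was higher in stellate cells after caerulein (1.85) and in i4F (1.25). It was the 1 of 8 inhibitors called there in each, where 17.1% and 20.6% of all genes were. With all mice, none of the 5 lysosomal transcription factors listed was called by edgeR in any class. At most 2 had an unadjusted p under 0.05 in a class against WT. That was so in caerulein acinar (21.9% of all genes) and ductal cells (30.7%) and in i4F macrophages (19.9%). Without i4F mouse 3, edgeR called 3 in i4F acinar cells (32.7% of all genes) and 2 in caerulein ductal cells (32.2%). Elsewhere it then called at most 1. DESeq2 called 1 of them in the all-cell sums of each treatment against WT (23.7% of all genes in i4F).

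Many calls in the related lists were lost in fits without 1 mouse. Of 99 called pairs of gene and class, the all-cell sums included, 99 were called in the same direction without i4F mouse 3 and 98 with DESeq2. Without caerulein mouse 1 there were 6, without caerulein mouse 2 15, without WT mouse 1 9 and without WT mouse 2 13. Without i4F mouse 1 there were 50 of 98 and without i4F mouse 2 21. With the term for the name series 4 of the 99 stayed called. Of the 53 pairs in acinar, ductal, stellate and endothelial cells that could be tested without macrophage UMIs, 29 stayed called. Leaving out i4F mouse 3 also added calls. The other membrane proteins called went from 5 to 9 in caerulein macrophages (16.4% of all genes). In stellate cells they went from 6 to 11 after caerulein (39.7%) and from 6 to 12 in i4F (47.8%).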

How the data were processed

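Single-cell libraries were prepared by the authors with the 10x 3′ v3 chemistry and aligned with Cell Ranger to GRCm38/mm10. Cells under 150 genes or over 5% mitochondrial reads were removed by the authors, and SoupX and Seurat were used. The deposited tables hold whole-number UMI counts per gene and cell with cluster labels. Whether the counts were taken before or after SoupX is not stated in the sources used here, so free RNA may remain in them. Every column of cells was used (0 left out). Libraries held 15469018 to 64784216 UMIs.

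Counts were summed per mouse and cell class, and a gene without a row was read as 0. Doublets were not called. Genes passing filterByExpr were tested with edgeR 4.0.16 (TMM, quasi-likelihood test) in R 4.3.3, with WT, i4F and caerulein in 1 fit and Benjamini-Hochberg adjustment over all genes of the class. The scripts were tested on simulated data. Alternatives were the test of DESeq2 1.42.0, a fit without TMM, one without the filter, 2 groups alone, a replicate block, a term for the library name series, cells of at least 500 genes, macrophages by C1q UMIs, cells without macrophage UMIs and each mouse left out, in which case a lone mouse is assumed to vary like the other groups. Members and lists were chosen with earlier results of these data known. Named genes were fixed role members, up to 5 called members in each direction per class and comparison with groups that did not overlap, and up to 4 of each related list, with further related genes named where a class and comparison had 5 or fewer in one direction. Numbered titles were taken as 1 mouse each, and p-values measure the spread between these libraries, which may be partly technical. Both treatments share the WT mice. A single gene of the related lists is not reported here.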

Additional observations from a re-analysis of the deposited data

Results flagged for a closer look

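Endothelial cells differed between the treatments for 4 cathepsins by a test of the difference itself: against caerulein, the log2 fold change in i4F was −2.87 for Ctsd, −2.62 for Ctsh, −2.01 for Ctsc and −1.60 for Ctsa. Among cells without macrophage UMIs these values were −0.39, −0.67, −0.45 and −0.50, with none called by edgeR, and each call was lost without some single mice and with the term for the name series. Macrophage markers summed to 2095 to 3798 CPM in the caerulein and 129 to 488 CPM in the i4F endothelial cells.

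Only the fixed role members were searched for log2 fold changes of opposite sign in stellate cells and macrophages. Those listed had groups that did not overlap in either class. The share of all genes with such a pattern was not computed. The difference between the classes was not tested, and of these values the one called is that of Lamp2 in stellate cells after caerulein, a call lost among cells without macrophage UMIs. After caerulein the log2 fold change against WT was −0.66 in stellate cells and 2.77 in macrophages for Ctsl, −0.21 and 0.64 for Ctsz, and −1.11 and 0.17 for Lamp2. In i4F it was −0.29 and 1.82 for Ctsd, and −0.44 and 0.60 for Ctsz.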

How the results depend on the processing

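Over the cell classes, 19 member calls were made for caerulein against WT, 2 for i4F against WT and 4 for i4F against caerulein, and over all cells 11, 0 and 0. In that order, DESeq2 gave 35, 15 and 15, then 21, 10 and 5. No filter gave 39, 26 and 22, then 14, 6 and 0. Fitting 2 groups alone gave 48 and 25 for caerulein, and no TMM scaling gave 3 in i4F over the classes and 5 over all cells, where the number of all genes called went from 0 to 2405 of 18340, 456 higher and 1949 lower. With the term for the name series there were 4, 0 and 0, then 0, 0 and 0. The replicate block gave 42, 38 and 8, then 23, 19 and 1, but same-numbered mice share only a number, and their deviations correlated at −0.37 to 0.13. Cells of at least 500 genes gave 6 for i4F against caerulein. For the next 2 alternatives, classes they do not touch kept their calls of the main fit. C1q macrophages gave 4 in i4F, of which 2 were in macrophages. Cells without macrophage UMIs gave 10 for caerulein, of which 5 were stellate, 1 was acinar and 4 were macrophage calls of the main fit. They gave 0 for i4F against caerulein. Leaving out 1 mouse gave 1 to 55, 0 to 52 and 0 to 20 over the classes and 0 to 25, 0 to 22 and 0 to 5 over all cells, and the highest count came without i4F mouse 3. Of 36 called pairs of member and class, 36 stayed called in the same direction with DESeq2, 31 without TMM, 3 with the series term, 3 without caerulein mouse 1 and 7 without WT mouse 1. Without cells holding macrophage UMIs, 7 of 20 did, and Ctsc in endothelial cells (−0.41) and Ctsd in stellate cells (−0.21) changed direction after caerulein. The causes were not tested. Without TMM the split of all genes called after caerulein in the all-cell sums went from 944 higher and 722 lower to 652 and 2262, and in stellate cells from 1480 and 1052 to 1087 and 1388. Depth limits the rarest members, of which 8 passed the filter in no class.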

Other observations

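Some members differed widely between mice of a group. Ctsk, known from osteoclasts and fibroblasts, was at 173 CPM (261 UMIs) in the macrophage class of WT mouse 2 and at 2.91 CPM (2 UMIs) in that of WT mouse 1. In the same class the stellate marker list summed to 1598 and 347 CPM. Atp6v0d2, the V0 subunit isoform of osteoclasts and alveolar macrophages, was at 0 CPM in macrophages of WT mouse 1 and 18.6 CPM in WT mouse 2. After caerulein it was at 5.59 and 5.70 CPM, and in i4F mice at 4.70, 1.74 and 19.5 CPM. Ctsg, the serine protease of neutrophil granules, had 53 of its 71 UMIs in the macrophage class of i4F mouse 2, whose neutrophil list was the highest of all mice at 6196 CPM. Ctse, an aspartic protease of epithelia, had 0 UMIs in WT acinar cells, 22 and 23 after caerulein and 156, 19 and 1 in i4F mice 1 to 3. These counts are not scaled for depth. The acinar cells held 767407 and 817448 UMIs of all genes in WT and 5893070 and 2421364 after caerulein. In i4F mice 1 to 3 they held 3530216, 4470144 and 2887026.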
